A study of Mus musculus with 12 samples.

Results

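Gene expression was compared between 2 siRNAs against the same target, siSRSF1-3 and siSRSF1-2, in U2OS cells, a human osteosarcoma cell line. The comparison took the 3 libraries of cells given siSRSF1-3 and the 3 libraries of cells given siSRSF1-2, 6 of the 12 RNA-Seq libraries of the study, with all genes. Of the 58735 genes listed, 17538 had FPKM (fragments counted on a gene per kilobase of its length, with a scaling by library) averaging at least 0.5 over the 12 libraries and were tested. The other libraries were 3 of blank U2OS cells, whose levels are given beside some results with no test, and 3 of cells with LINC01134 upregulated, which entered no comparison here. Blank cells carried no siRNA, and the samples include no control siRNA, so what either siRNA does apart from SRSF1 cannot be told apart from what follows the loss of SRSF1. The labels give neither dose nor time for these libraries, and they do not say whether replicates came from separate cultures, so p-values measure only the spread between these libraries. The labels name mouse as the organism, but every gene named here has a human Ensembl identifier.

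SRSF1 belongs to the SR proteins, which bind exonic sequences through RNA recognition motifs and recruit the spliceosome through a domain rich in arginine and serine. It sets splice site choice, takes part in mRNA export, translation and nonsense-mediated decay, and is known as an oncoprotein. An siRNA lowers its target through Argonaute-bound pairing with the mRNA, and each siRNA also carries a seed that can pair with other mRNAs. Setting a pair of siRNAs to one target side by side therefore asks which expression changes they do not have in common.

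The 2 groups differed in how alike their own libraries were. Reads on genes ranged from 26470200 to 32954539 with siSRSF1-2 and from 27546958 to 29396784 with siSRSF1-3. A chi-square of the read counts of 2 replicates, divided by its degrees of freedom, lay between 2.60 and 3.20 for the siSRSF1-2 pairs and between 92.8 and 316 for the siSRSF1-3 pairs. The siSRSF1-2 libraries were thus much alike, though they differed by more than counting error, while the siSRSF1-3 libraries stood apart from each other. Transcripts of cytosolic ribosomal proteins took 18.2%, 13.1% and 7.63% of the reads in siSRSF1-3 replicates 1, 2 and 3. The same share was between 6.04% and 6.34% with siSRSF1-2 and between 6.22% and 6.93% in blank cells. Genes with at least 1 read numbered 27922, 27813 and 30877 in siSRSF1-3 replicates 1, 2 and 3, against 31074 to 32135 with siSRSF1-2. Replicates 1 and 2 of siSRSF1-3 therefore lay outside the range of the siSRSF1-2 libraries further than replicate 3 did, and the values of the main genes below are given by library. Among markers of the labelled cells, VIM had 77.3 to 183 FPKM and RUNX2 2.03 to 3.92 in these 6 libraries, while COL1A2 was at 0 reads or nearly so. The 8 epithelial markers summed to 6.24 to 7.14 FPKM with siSRSF1-2 and to 8.45 to 9.90 with siSRSF1-3. The 7 blood cell markers summed to 13.1 to 16.3 FPKM with siSRSF1-2 and to 10.9, 52.3 and 16.3 with siSRSF1-3, nearly all of it HBB, while CD3E and PTPRC were at or near 0. The part of these markers in the results was not tested.

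SRSF1 itself did not separate the siRNAs. SRSF1 (ENSG00000136450, chromosome 17 from 58003360 to 58007346, genome build not given in the sources used here for these genes) had 7.09, 7.46 and 7.41 FPKM with siSRSF1-2. With siSRSF1-3 it had 3.33, 6.81 and 7.90 FPKM, and in blank cells 35.9, 19.8 and 20.5. The siSRSF1-3 libraries lay on both sides of the siSRSF1-2 libraries, and all 6 lay below every blank library. The log2 difference, siSRSF1-3 minus siSRSF1-2, was -0.37 (SE 0.32, adjusted p = 0.387 from limma). An exact two-sided permutation test gave p = 0.6, where 3 libraries against 3 cannot give less than 0.1. The difference rested on replicate 1 of siSRSF1-3, without which it was 0.00.

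**Figure D1:**
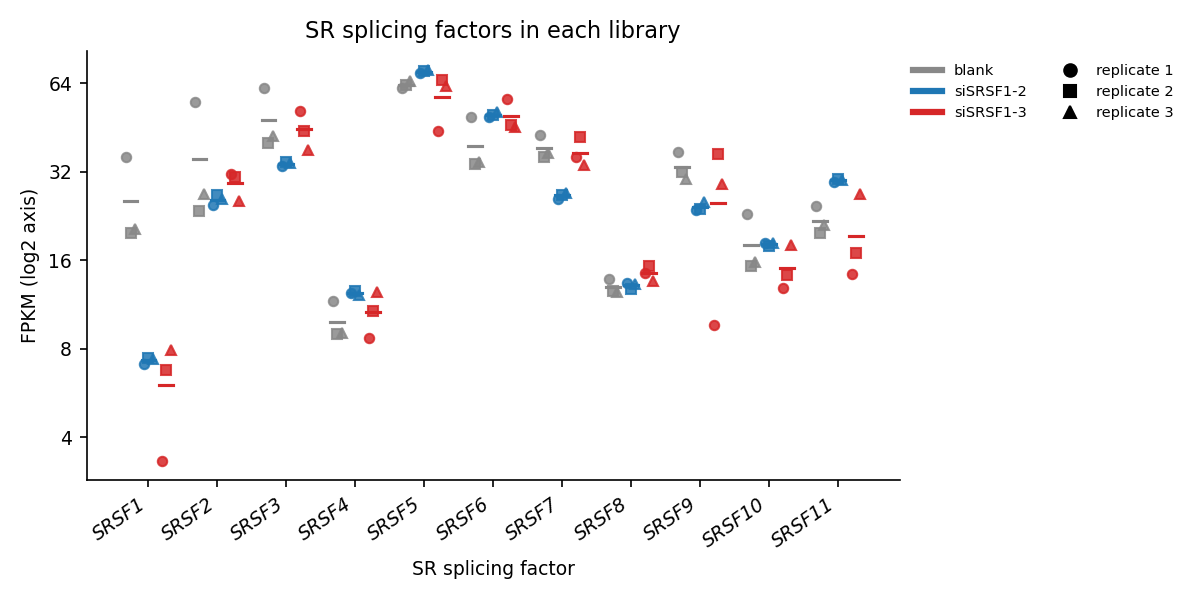
FPKM on a log2 axis of 11 SR splicing factors in the 3 blank, 3 siSRSF1-2 and 3 siSRSF1-3 libraries. Points are libraries and short lines are group means. For SRSF1 the siSRSF1-3 libraries (3.33, 6.81 and 7.90) overlap the siSRSF1-2 libraries (7.09 to 7.46), and both groups lie below the blank cells.

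Of the 11 SR proteins tested, 0 passed the threshold, an adjusted p (Benjamini-Hochberg) under 0.05 and a log2 difference beyond 1 in either direction. With p unadjusted and the same fold, the count was also 0. SRSF11, a nuclear SR-related factor, had 29.6, 30.2 and 30.0 FPKM with siSRSF1-2 against 14.4, 16.9 and 26.9 with siSRSF1-3 (log2 difference -0.68, adjusted p = 0.0969 from limma). SRSF7, which also shuttles to the cytoplasm, had 25.9, 26.7 and 27.1 FPKM against 36.0, 42.0 and 33.7 (log2 difference 0.48, adjusted p = 0.0801 from limma). SRSF3, the smallest SR protein, had 33.5, 34.5 and 34.2 FPKM against 51.7, 44.2 and 38.1 (log2 difference 0.38, adjusted p = 0.107 from limma). For these 3 genes the groups did not overlap, but none passed the test. Of the 11 SR proteins, 3 (27.3%, against 27% of all genes) lay above every siSRSF1-2 library. Another 2 (18.2%, against 27.6% of all genes) lay below, so separation was no more frequent here than among all genes. SRSF9 had 9.66 FPKM in replicate 1 of siSRSF1-3, and 36.7 and 29.0 in the others, against 23.8 to 25.2 with siSRSF1-2.

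Across all genes, 6 genes were higher and 9 lower with siSRSF1-3 than with siSRSF1-2, 0.0342% and 0.0513% of those tested, or 0.0855% in all. Without the adjustment, at p under 0.05 and over the same fold, 1581 genes (9.01%) were higher and 1302 (7.42%) lower. In 4735 genes (27%) every siSRSF1-3 library lay above every siSRSF1-2 library, and in 4844 genes (27.6%) every one lay below, so the groups did not overlap in 54.6% of genes. Without siSRSF1-3 replicate 3, 2807 genes (16%) were called higher and 2551 (14.5%) lower. Without any one of the siSRSF1-2 libraries, or without siSRSF1-3 replicate 2, 0 genes were called in either direction, although without adjustment between 671 and 976 were higher and between 703 and 921 lower. Every call of a single gene named here was therefore lost in those 4 settings, and the calls say no more than that these genes differed beyond the spread in the fit of all 6 libraries.

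The 6 genes called higher were all protein coding. CMTM8 (ENSG00000170293, chromosome 3 from 32238679 to 32370325), a MARVEL-domain membrane protein linked to the uptake of EGFR, had 5.66, 4.90 and 3.94 FPKM with siSRSF1-2 and 20.6, 24.4 and 18.1 with siSRSF1-3. Its log2 difference was 2.10 (SE 0.18, adjusted p = 0.0375 from limma), and the blank libraries lay between the groups at 12.1, 11.1 and 11.1 FPKM. The siRNAs thus left CMTM8 on opposite sides of its level in blank cells.

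ARL6IP1 (ENSG00000170540, chromosome 16 from 18791667 to 18801678), which shapes the membrane of the endoplasmic reticulum, had 6.80, 6.80 and 6.41 FPKM with siSRSF1-2 and 27, 29.6 and 24.5 with siSRSF1-3. The log2 difference was 2.00 (SE 0.12, adjusted p = 0.0317 from limma). Blank cells had 26.2, 20.5 and 21.2 FPKM, so for ARL6IP1 it was siSRSF1-2 that stood apart. STT3A (ENSG00000134910, chromosome 11 from 125591712 to 125625215), a catalytic subunit of the oligosaccharyltransferase that N-glycosylates proteins, gave a like picture. It had 8.36, 8.2 and 8.49 FPKM with siSRSF1-2, 17, 16.3 and 17.4 with siSRSF1-3 and 22.4, 20.4 and 20.4 in blank cells (log2 difference between the siRNAs 1.01, SE 0.10, adjusted p = 0.0491 from limma).

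For ARL14 and NR1D1 it was siSRSF1-3 that stood apart. ARL14 (ENSG00000179674, chromosome 3 from 160677159 to 160678452), a small GTPase of vesicle transport, had 6.48, 6.04 and 5.67 FPKM with siSRSF1-2 and 17.3, 15.9 and 15.8 with siSRSF1-3 (log2 difference 1.41, SE 0.11, adjusted p = 0.0375 from limma). Blank cells had 3.15, 7.01 and 6.83 FPKM of ARL14. NR1D1 (ENSG00000126368, chromosome 17 from 40092787 to 40100725), the heme-binding repressor of the circadian clock also called REV-ERB alpha, had 19.6, 18.8 and 18.2 FPKM with siSRSF1-2 and 50, 45.6 and 43.4 with siSRSF1-3. Its log2 difference was 1.29 (SE 0.11, adjusted p = 0.0375 from limma), against 9.91, 19.7 and 20.3 FPKM in blank cells. NR1D1 overlaps THRA on the opposite strand, and where counting ignores strand the reads of the pair cannot be told apart. ZNF395 (ENSG00000186918), a DNA-binding protein induced by hypoxia, had 4.12, 4.22 and 3.95 FPKM with siSRSF1-2 and 9.15, 9.71 and 9.86 with siSRSF1-3, with 5.77 to 6.48 in blank cells (log2 difference between the siRNAs 1.20, SE 0.10, adjusted p = 0.0375 from limma). As for CMTM8, the blank libraries of ZNF395 lay between both groups.

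**Figure D2:**
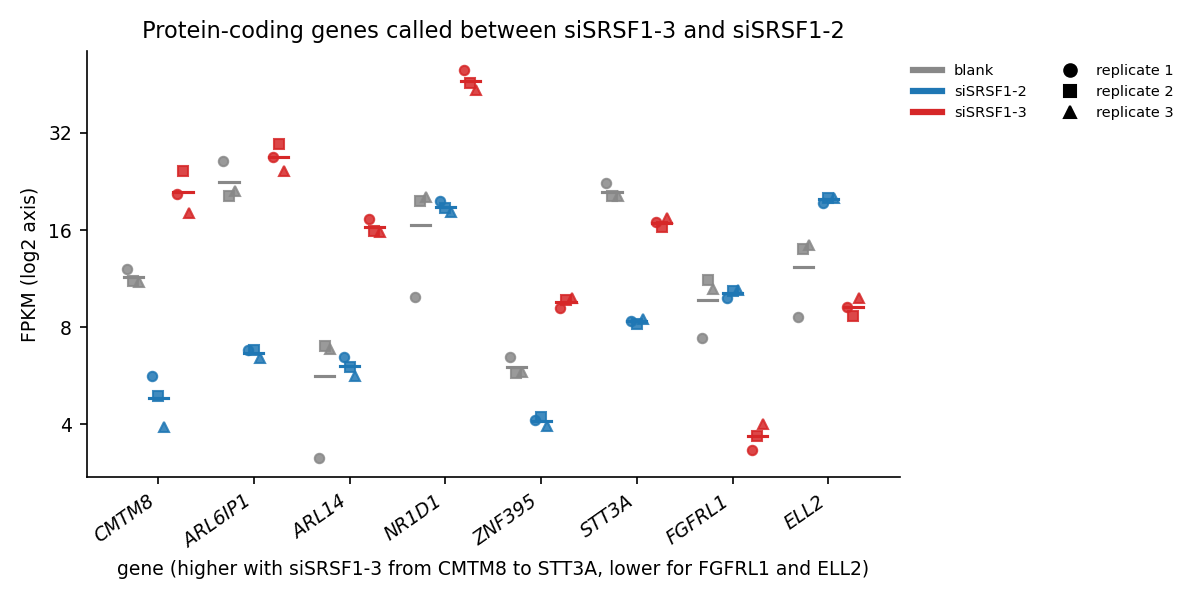
FPKM on a log2 axis of the 8 protein-coding genes called between the siRNAs, in the 3 blank, 3 siSRSF1-2 and 3 siSRSF1-3 libraries. Points are libraries and short lines are group means. ARL6IP1 and STT3A show siSRSF1-2 apart from blank cells, while NR1D1 and FGFRL1 show siSRSF1-3 apart.

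Of the 9 genes called lower with siSRSF1-3, 2 were protein coding. FGFRL1 (ENSG00000127418, chromosome 4 from 1009936 to 1026897), a receptor that binds fibroblast growth factors but has no kinase domain, had 9.87, 10.3 and 10.5 FPKM with siSRSF1-2 and 3.33, 3.67 and 4.02 with siSRSF1-3. The log2 difference was -1.45 (SE 0.12, adjusted p = 0.0375 from limma), and blank cells had 7.42, 11.2 and 10.5 FPKM. ELL2 (ENSG00000118985, chromosome 5 from 95885098 to 95962071), an elongation factor of RNA polymerase II, had 19.4, 20.1 and 20.1 FPKM with siSRSF1-2 and 9.24, 8.65 and 9.85 with siSRSF1-3 (log2 difference -1.10, SE 0.10, adjusted p = 0.0491 from limma). Blank cells had 8.59, 14 and 14.4 FPKM of ELL2. FGFRL1 in blank replicates 2 and 3 was thus near siSRSF1-2, while ELL2 in every blank library was below siSRSF1-2.

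The remaining 7 genes called lower were short non-coding genes with 0 reads in every siSRSF1-3 library. They were MIR553, MIR6769A, MIR4701, the C/D box RNA SNORD116-24, the 7SL pseudogene RN7SL184P, a small RNA gene (ENSG00000201217) and an unnamed antisense transcript (ENSG00000251603), of which 4 were named after their values were seen. A count of 0 allows up to 3 reads per library by counting error alone. The siSRSF1-2 mean of the antisense transcript, with 16, 13 and 21 reads, was 4.33-fold the mean of that floor over the siSRSF1-3 libraries. For RN7SL184P, with 10, 13 and 14 reads, it was 3.22-fold the floor. For MIR553, with 3, 6 and 10 reads, it was 1.61-fold. Its siSRSF1-2 replicate 1, at 1.54 FPKM, lay under the mean floor of 1.80. MIR4701, with 2, 2 and 3 reads, lay at or under the floor in both groups. These folds allow no counting error in siSRSF1-2. These calls therefore rest on few reads. The filter of 0.5 FPKM also took in the siSRSF1-2 libraries, where these genes were above their level with siSRSF1-3. Of the 7, 5 would have passed it on the 6 blank and LINC01134 libraries alone. MIR6769A, at 0.149 FPKM over those 6, and RN7SL184P, at 0.472, passed through siSRSF1-2, so their calls are in part fixed by the filter. Altogether 27 of the genes tested had a read in every siSRSF1-2 library and 0 in every siSRSF1-3 library, and 2 the reverse. With the filter set on the 6 blank and LINC01134 libraries, the counts were 30 and 2. Genes of the small RNA classes with at least 1 read numbered 1297, 1347 and 1482 of 7001 with siSRSF1-2 and 677, 656 and 1178 with siSRSF1-3, so replicates 1 and 2 of siSRSF1-3 detected the fewest. Mature miRNAs and snoRNAs are not what a library of mRNA is made to measure.

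Just short of the threshold, at an adjusted p of 0.0515 from limma, stood 29 genes. In each of them the groups did not overlap, as in 54.6% of all genes tested, and a p this small all but requires it. Of these, 24 also differed by a log2 value beyond 1, 14 with higher and 10 with lower values. The 14 named here had the smallest p among genes of known name, averaging at least 1 FPKM, whose groups did not overlap. FSTL1 and DLD were within that fold. Among the 6 named with higher values, CCNB1IP1, a ubiquitin ligase of cyclin B, had 16.8, 16.9 and 16.3 FPKM with siSRSF1-2 and 69.7, 55.3 and 43.6 with siSRSF1-3 (log2 difference 1.72). GMNN, which encodes geminin, the inhibitor of DNA replication licensing, had 4.57, 4.98 and 5.73 FPKM against 14.9, 15.3 and 11.7 (log2 difference 1.43). CRABP2, a carrier of retinoic acid, had 5.41, 4.99 and 5.38 FPKM against 17.9, 16.4 and 12.7 (log2 difference 1.54). The others were NEURL3, GCNA and CCDC90B, with log2 differences of 1.69, 1.54 and 1.06. Blank cells had 2.14, 15.7 and 14.9 FPKM of GCNA, where siSRSF1-2 had 13.7 to 14.9 and siSRSF1-3 had 37.5 to 52.7, so blank replicate 1 was far below the other 8 of these libraries.

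Of the 8 named with lower values, SEC23A, a coat protein of vesicles that leave the endoplasmic reticulum, had 9.47, 10 and 9.76 FPKM with siSRSF1-2 and 2.16, 2.42 and 3.71 with siSRSF1-3 (log2 difference -1.82). TNFSF8, the ligand of CD30, had 11.4, 12.2 and 12.6 FPKM against 3.23, 2.92 and 4.79 (log2 difference -1.73). PTPRU, a receptor tyrosine phosphatase, had 7.59, 7.63 and 7.87 FPKM against 2.92, 3.30 and 3.72, with 12.2 to 14.8 in blank cells (log2 difference -1.20). The other 5 were SOWAHC, PCYOX1, SEPTIN10, FSTL1 and DLD, with log2 differences of -1.57, -1.32, -1.04, -0.91 and -0.89. DLD overlaps LAMB1, at -1.17, on the opposite strand, and where counting ignores strand the reads of the overlap cannot be told apart. In each of these 8 genes all siSRSF1-3 libraries were below all siSRSF1-2 libraries, which the choice of genes to name required.

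The mean level in blank cells was set beside both siRNAs to show which of them departed from it. Among the 1581 genes higher at an unadjusted p, the blank mean was nearer to the siSRSF1-2 mean in 1306 (82.6%), and among the 1302 lower it was nearer in 945 (72.6%). Among the 15 genes called, it was nearer in 9, and in 12 it lay between both siRNA means. With siSRSF1-3 replicate 3 alone in place of the siSRSF1-3 mean, the shares for the same genes were 48.3% and 37.9%, while the blank mean was still nearer to siSRSF1-2 in 9 of the 15 called. Without blank replicate 1, which stood apart from blank replicates 2 and 3, they were 80.3% and 70.7%, with 10 of the 15. So the larger shares rest on siSRSF1-3 replicates 1 and 2, and they were not tested.

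Gene lists were described by how many members lay outside the range of the other group and by their median log2 difference, beside a median of -0.02 over all genes tested. Cytosolic ribosomal proteins, the structural parts of the ribosome, had positive medians in all 3 siSRSF1-3 libraries. Of the 76 tested, 71 (93.4%, against 27% of all genes) lay above every siSRSF1-2 library. At an unadjusted p and over the same fold 58 were higher, against 9.01% of all genes, and 0 passed the adjusted test. The median log2 difference was 1.29 over the group and 2.09, 1.42 and 0.35 in replicates 1, 2 and 3, so its size varied widely between libraries. RPL11, a protein of the large subunit, had 240, 237 and 241 FPKM with siSRSF1-2 and 890, 615 and 320 with siSRSF1-3. RPS25, of the small subunit, had 253, 242 and 245 FPKM against 679, 603 and 315. Both subunits had close medians, 1.29 for 46 large-subunit and 1.30 for 30 small-subunit proteins. RPL36A and RPL17 went the other way, with log2 differences of -0.48 and -0.22. Without siSRSF1-3 replicate 3, 69 of the 76 were called higher and 0 lower, against 16% and 14.5% of all genes in that setting. Ribosomal protein genes have many pseudogene copies, and reads may be shared among them.

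Subunits of the respiratory chain encoded in the nucleus showed the same ordering of libraries. Of 79 tested, 69 (87.3%, against 27% of all genes) lay above every siSRSF1-2 library, with a median log2 difference of 1.23 and medians of 1.87, 1.35 and 0.32 in replicates 1, 2 and 3. By complex, the medians were 1.15 for 37 subunits of complex I, 1.13 for 12 of complex III, 1.30 for 12 of complex IV and 1.32 for 18 of the ATP synthase. NDUFB6, an accessory subunit of complex I, had 38.7, 39.1 and 39.4 FPKM with siSRSF1-2 and 133, 116.2 and 64.6 with siSRSF1-3 (log2 difference 1.35, adjusted p = 0.0749 from limma). COX7A1, the muscle form of a complex IV subunit, was lower at -1.01, and NDUFA13 and NDUFS1 of complex I were lower at -0.80 and -0.64. The 13 protein genes of the mitochondrial genome had a median of 0.23, and medians of 0.78, -0.09 and -0.03 by replicate. Among them MT-ND4L had 3828, 3591 and 3984 FPKM with siSRSF1-2 and 462, 571 and 2683 with siSRSF1-3 (log2 difference -2.09, adjusted p = 0.0959 from limma). MT-ATP8 had 506, 553.5 and 587 FPKM against 264, 243 and 453. Both genes overlap a neighbouring mitochondrial gene, so how reads were split between the pair is uncertain.

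Mitochondrial ribosomal proteins, which translate the mitochondrial genome, had a median of 0.83, with 57 of 77 (74.0%, against 27% of all genes) above every siSRSF1-2 library and medians of 1.18, 0.99 and 0.25 by replicate. MRPL33 had 38.0, 34.1 and 36.2 FPKM with siSRSF1-2 and 124, 102 and 53.4 with siSRSF1-3. MRPL19 went the other way, at -0.66. Proteasome subunits had a median of 0.47 with 21 of 37 (56.8%) above, and PSMB7, a proteolytic subunit, had 93.1, 94.8 and 93.5 FPKM against 435, 272 and 145. Translation initiation factors were mixed, with a median of 0.20. EIF1B, which takes part in start codon choice, had a log2 difference of 0.80, and EIF5A2 had -0.92, with 5.48 to 5.61 FPKM against 2.59 to 3.40.

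Proteins of the spliceosome were mixed. The Sm proteins and other proteins of the U snRNPs had a median of 1.01, and 17 of the 19 tested (89.5%, against 27% of all genes) lay above every siSRSF1-2 library. Medians were 1.67, 1.20 and 0.31 in replicates 1, 2 and 3. SNRPF and SNRPG, members of the Sm ring, had log2 differences of 1.18 and 0.92, and SNRPA1 of the U2 snRNP had 11.4, 11.8 and 11.7 FPKM against 24.2, 21.8 and 15.6. SNRNP200 of the same list, the large helicase of the U5 snRNP and the 1 member below every siSRSF1-2 library, was at 37.4, 39.9 and 39.9 FPKM with siSRSF1-2 and 20, 20.3 and 28.6 with siSRSF1-3 (log2 difference -0.78, adjusted p = 0.0749 from limma). The hnRNP proteins, which often act against SR proteins at exons, had a median of -0.11 over 21 genes. HNRNPM had 36.8, 38.6 and 38.6 FPKM with siSRSF1-2 against 63.3, 61.9 and 47.2 with siSRSF1-3. HNRNPH1 had the opposite order, with 28.5, 29.4 and 30.5 FPKM against 10.4, 15 and 24.7. Among the kinases that phosphorylate SR proteins, SRPK2 had 16.4, 16.8 and 17.1 FPKM against 4.67, 6.92 and 10.7 (log2 difference -1.24), while SRPK1 differed by -0.29.

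**Figure D3:**
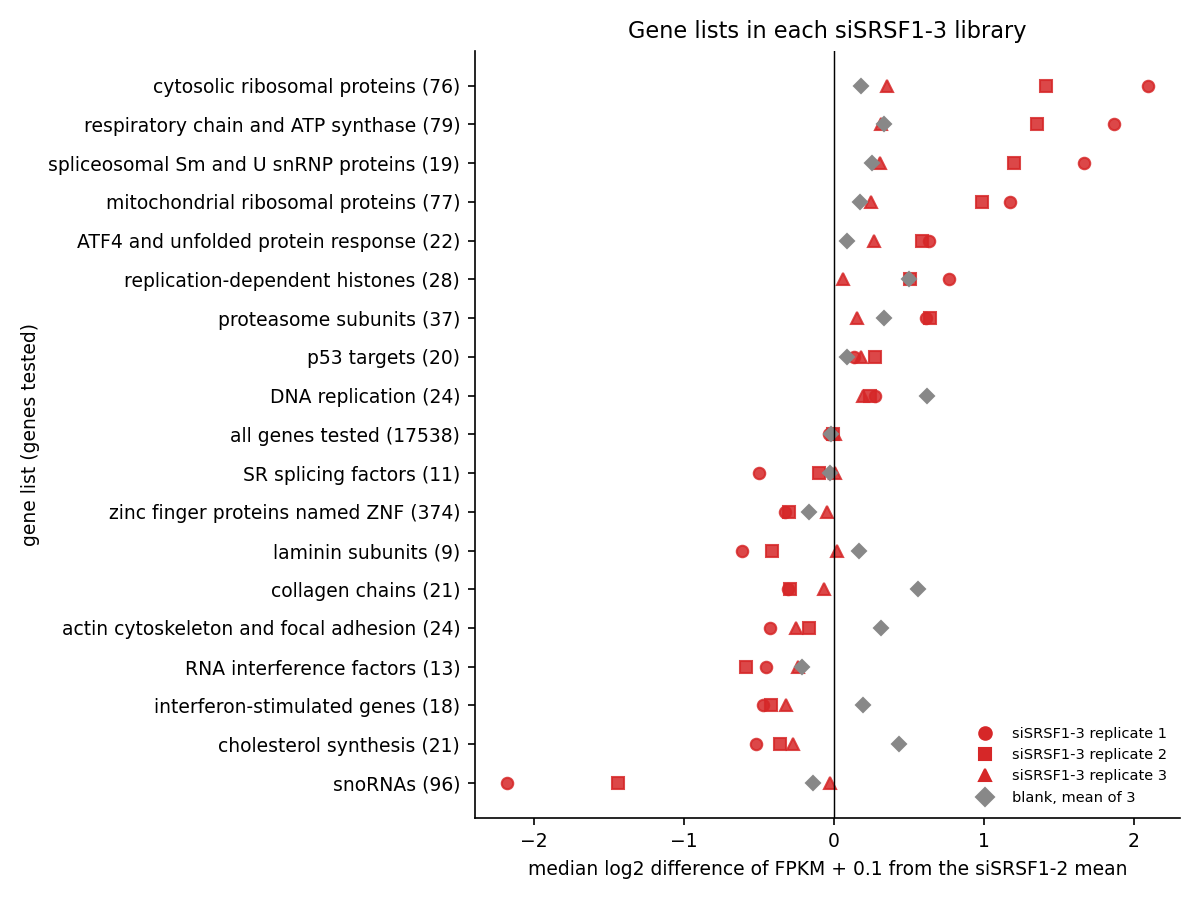
Median log2 difference of FPKM + 0.1 from the siSRSF1-2 mean for 18 gene lists and all genes tested, by siSRSF1-3 library (red) and for the mean of the blank libraries (grey). Cytosolic ribosomal proteins are at 2.09, 1.42 and 0.35 in replicates 1, 2 and 3, and replicate 3 is the nearest to 0 in most lists.

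Targets of ATF4 and the unfolded protein response, genes that cells induce when amino acids run short or proteins misfold, mostly had higher values. Of 22 tested, 16 (72.7%, against 27% of all genes) lay above every siSRSF1-2 library, the median was 0.53, and 0 passed the test. ATF4, the transcription factor itself, had 237, 228 and 229 FPKM with siSRSF1-2 and 816, 579 and 381 with siSRSF1-3 (log2 difference 1.29, adjusted p = 0.0792 from limma). HSPA5, the chaperone BiP of the endoplasmic reticulum, had 152, 147 and 147 FPKM against 262, 237 and 217. SLC7A11, the cystine transporter and also a target of ATF4, went the other way with 37.5, 41.2 and 42.0 FPKM against 11.8, 15.6 and 22.9. TXNRD1, a thioredoxin reductase under NRF2, was likewise lower, at 93.2, 101 and 99.0 FPKM against 35.5, 39.2 and 62.3. The metallothionein MT1E had 71.5, 62.6 and 65.7 FPKM with siSRSF1-2 and 590, 335 and 151 with siSRSF1-3, while blank cells had 314 to 393.

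Targets of p53 had a median of 0.29, with 9 of 20 (45%, against 27% of all genes) above and 3 (15%, against 27.6%) below every siSRSF1-2 library. BAX, the pore-forming killer of the BCL2 family, had 68.9, 67.3 and 67.2 FPKM with siSRSF1-2 and 258, 216 and 109 with siSRSF1-3 (log2 difference 1.43, adjusted p = 0.0772 from limma). CDKN1A, which encodes the cell cycle inhibitor p21, had 157, 153 and 156 FPKM against 292, 247 and 199 (log2 difference 0.65). ZMAT3 of the same list went the other way, with 12.6, 12.2 and 13.2 FPKM against 5.93, 5.80 and 8.41 (log2 difference -0.93). MDM2, the ubiquitin ligase of p53, had 9.24, 9.26 and 9.26 FPKM against 9.80, 8.43 and 9.77, so the groups overlapped. Among regulators of the G1 phase, CDK6 had 10.2, 12 and 12.3 FPKM against 4.2, 4.51 and 5.90 (log2 difference -1.23, adjusted p = 0.0546 from limma). CCND1, cyclin D1, had 11, 10.8 and 11.8 FPKM against 5.47, 5.57 and 6.76 (log2 difference -0.91, adjusted p = 0.0581 from limma). Both lay below every siSRSF1-2 library and missed the threshold of adjusted p narrowly, while CCND1 also fell short of the fold threshold. Replication and mitosis genes as lists had medians of 0.23 and 0.16, with E2F1 at 1.03, CDC45 at 0.67, TOP2A at -1.02 and MKI67 at -0.76.

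Genes of the matrix and their receptors were mixed, and 0 passed the test. Collagen chains had a median of -0.26, with 10 of 21 (47.6%, against 27.6% of all genes) below and 5 (23.8%, against 27%) above every siSRSF1-2 library. Their median length was 9269 bases, and 54.0% of the longest genes, of 7117 bases or more, also lay below. Other matrix and matricellular proteins had a median of -0.12, with 8 of 24 (33.3%) below and 5 (20.8%) above, and matrix proteases and their inhibitors had 3 of 15 (20%) below and 5 (33.3%) above. Of the integrin subunits 7 of 17 (41.2%) lay below and 5 (29.4%) above, and of the laminin subunits 4 of 9 (44.4%) below and 0 above. COL6A3 of the collagen VI microfibril had 29.6, 32.1 and 34.0 FPKM with siSRSF1-2 and 6.81, 7.15 and 13.6 with siSRSF1-3 (log2 difference -1.86, adjusted p = 0.0603 from limma). COL4A1 of the basement membrane had 9.76, 10.5 and 10.6 FPKM against 2.47, 3.44 and 5.98. FN1, fibronectin, had 55.4, 57.8 and 59.3 FPKM against 12, 16.4 and 30.2 (log2 difference -1.66, adjusted p = 0.0731 from limma). In these 3 genes every siSRSF1-3 library was below every siSRSF1-2 library, with replicate 3 the nearest. NID1, a linker of the basement membrane, had 47.4, 48.9 and 50.8 FPKM against 10.5, 14.2 and 27.5, but here blank cells, at 17.8, 11.7 and 11, were near siSRSF1-3. LAMA1 gave the same order, with 52.1 to 55.9 FPKM with siSRSF1-2, 23.9 to 35.1 with siSRSF1-3 and 19.3 to 22.6 in blank cells. Of the integrins, ITGA2, a collagen receptor, had 8.65, 9.21 and 9.37 FPKM against 1.28, 2.09 and 3.55 (log2 difference -2.04). ITGA3, a laminin receptor, went the other way, with 37.6, 38.3 and 36.8 FPKM against 52.7, 50.1 and 53.1 (log2 difference 0.47). MMP2, a gelatinase, was higher at 18.5, 20 and 19.1 against 39.4, 35.6 and 33.7 (log2 difference 0.91, adjusted p = 0.0517 from limma). Actin and focal adhesion genes had a median of -0.31 with 12 of 24 (50%) below, among them ACTN1, which crosslinks actin, at -0.85.

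Genes of cholesterol synthesis and uptake had a median of -0.52, with 12 of 21 (57.1%, against 27.6% of all genes) below every siSRSF1-2 library. CYP51A1, the lanosterol demethylase, had 3.22, 3.69 and 3.35 FPKM with siSRSF1-2 and 0.0427, 0.263 and 1.79 with siSRSF1-3. HMGCS1, at the head of the mevalonate pathway, had 19.4, 21.8 and 21.7 against 4.21, 9.78 and 18.3. In both genes replicate 1 was the lowest and replicate 3 the nearest to siSRSF1-2. LSS, lanosterol synthase, differed more evenly, with 7.01, 8.07 and 7.99 FPKM against 5.12, 4.84 and 5.22 (log2 difference -0.59, adjusted p = 0.0725 from limma).

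Interferon-stimulated genes had a median of -0.39, with 11 of 18 (61.1%, against 27.6% of all genes) below and 1 above every siSRSF1-2 library. IFIT3, an antiviral protein, had 1.37, 1.74 and 1.64 FPKM against 0.618, 0.626 and 0.765 (log2 difference -1.13). ISG15, the ubiquitin-like modifier, had 9.73, 10.8 and 9.80 FPKM against 56.3, 31.3 and 10.2, so the list did not move as one. Factors of RNA interference had a median of -0.37, with 7 of 13 (53.8%, against 27.6% of all genes) below every siSRSF1-2 library. Their median length was 11111 bases, and 54.0% of the genes of 7117 bases or more lay below. AGO2, the slicer of the silencing complex, was at 17, 17.5 and 18.4 FPKM against 7.45, 8.69 and 13.1. TARBP2, a partner of Dicer, went the other way, at 6.84, 6.21 and 7.29 against 18.3, 15.4 and 9.49.

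Cytokine and immediate early genes had medians of -0.22 and -0.09. Of the cytokine list, 5 of 14 (35.7%, against 27.6% of all genes) lay below every siSRSF1-2 library and 3 (21.4%, against 27%) above. Of the immediate early list, 5 of 12 (41.7%) lay below and 2 (16.7%) above. CXCL8, interleukin 8, had 141, 188 and 192 FPKM with siSRSF1-2 against 56.4, 75.3 and 103 with siSRSF1-3. EGR1, a transcription factor that growth signals induce, had 132, 134 and 140 against 58.8, 60.0 and 79.6. In CXCL8 and EGR1 the siSRSF1-3 libraries lay below every siSRSF1-2 library. IL11, a cytokine, went the other way, with 15.1, 15.6 and 12.6 FPKM against 25.1, 27.9 and 21.7 (log2 difference 0.78). So did FOSL1 of the immediate early list, with 75.8, 83.1 and 76.1 FPKM against 347, 191 and 134 (log2 difference 1.40). Blank replicate 1 had 2.97 FPKM of CXCL8 where blank replicates 2 and 3 had 281 and 291.

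**Figure D4:**
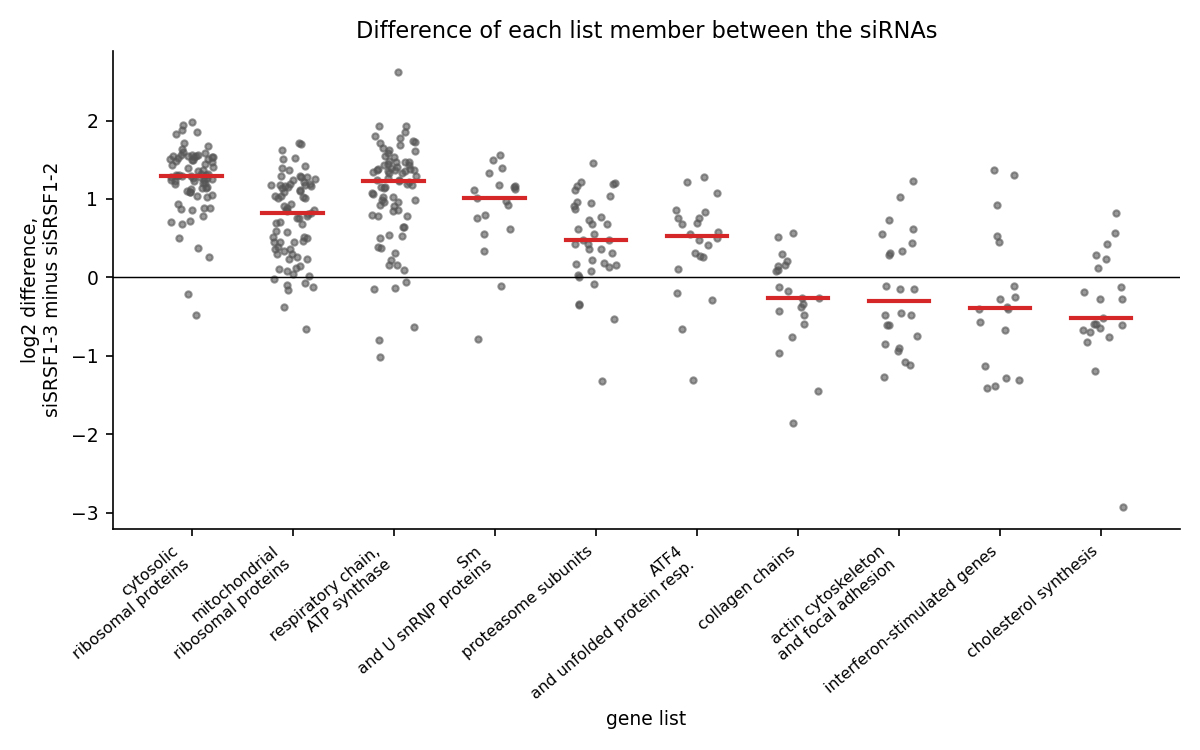
Log2 difference, siSRSF1-3 minus siSRSF1-2, of every tested member of 10 gene lists. Points are genes and red lines are list medians, from 1.29 in cytosolic ribosomal proteins to -0.52 in cholesterol synthesis.

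The difference between the siRNAs varied with gene length, in bases as the file gives it. In 5 bins of equal gene number, from 28 to 984, 985 to 2818, 2819 to 4636, 4637 to 7116 and 7117 to 46064 bases, the median log2 differences were -0.07, 0.42, 0.13, -0.11 and -0.37. In the bin of the longest genes, 54.0% of genes lay below every siSRSF1-2 library and 13.5% above. Over 12270 protein-coding genes, which are not independent replicates, the log2 difference from the siSRSF1-2 mean correlated with log2 length at r = -0.44, -0.51 and -0.34 in siSRSF1-3 replicates 1, 2 and 3. That bin held COL6A3, FN1 and ITGA2, and the ribosomal proteins had a median length of 3056 bases against 3701 over all genes. With each library's trend on this length removed, the median was 1.15 for cytosolic ribosomal proteins, 1.02 for the respiratory chain and 0.84 for the U snRNP proteins. In the same setting it moved from -0.26 to 0.10 for collagen chains and from -0.37 to 0.05 for RNA interference factors, so the sign of these lists depended on it. The length is given per gene and may differ from that of the transcripts present, so a trend on transcript length was not tested. The classes of short RNA were lower in replicates 1 and 2, with medians for the 194 miRNA genes tested of -2.51, -2.14 and -0.41 by replicate and for the 96 snoRNAs of -2.18, -1.44 and -0.02. The 1205 lincRNA genes had a median of 0.37. The part that the short RNA classes and the genes detected per library have in the other results was not tested.

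**Figure D5:**
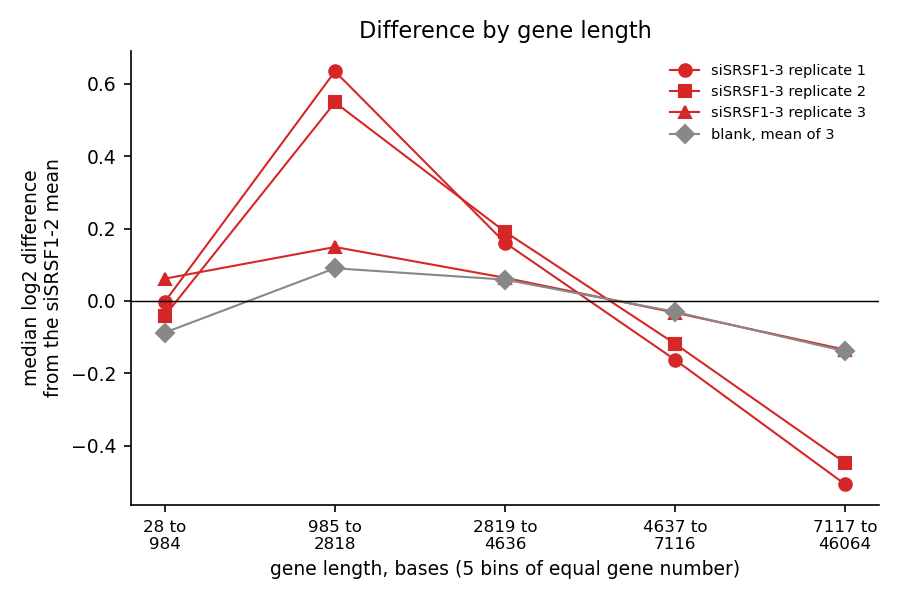
Median log2 difference of FPKM + 0.1 from the siSRSF1-2 mean in 5 bins of gene length in bases, for each siSRSF1-3 library (red) and the mean of the blank libraries (grey). Replicates 1 and 2 run from 0.63 and 0.55 at 985 to 2818 bases to -0.51 and -0.45 in the longest, and replicate 3 from 0.15 to -0.13.

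The scale of the FPKM bears on these directions. The deposited FPKM sum to between 281051 and 286019 with siSRSF1-2 and to 611084, 410612 and 302504 with siSRSF1-3. Scaling by a library's own reads moved the median of all genes from -0.02 to -0.31, and scaling to equal FPKM sums moved it to -0.57. The ribosomal proteins then had medians of 0.98 and 0.71, still above the median of all genes. Cholesterol synthesis and interferon-stimulated genes had -0.83 and -0.65 by read total, and -1.10 and -0.89 by sum. The medians of the ATF4 list, the proteasome and the histones turned to -0.05, -0.10 and -0.08 when rescaled by sum, which was still above the median of all genes in that setting, and p53 targets and replication genes turned negative in both. Of the 6 genes called higher, 1 was still called when scaled by reads and 0 when scaled by sum. Of the 9 called lower, 7 were still called in each of these settings. The calls of higher genes thus depended on the deposited scale. Fewer cells of a kind and less RNA per cell cannot be told apart in these bulk libraries.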

How the data were processed

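RNA-Seq of 12 U2OS libraries was used, of which 6 entered the comparison. The authors deposited FPKM per gene and library with gene length, coordinates, biotype and full name. The aligner, the counting program and the human genome build are not given in the sources used here. According to the study's methods, mRNA was selected and sequenced as paired ends, while the labels name another library kit. Multiplying FPKM by length gave whole reads, within 0.001 of a read for 100% of values, with library totals from 26470200 to 32954539 in the 6 libraries. The library size that the FPKM imply was 0.712, 0.888 and 1.06 times the reads in siSRSF1-3 replicates 1, 2 and 3, and 1.08 to 1.09 times with siSRSF1-2. That the FPKM were scaled by median-of-ratios factors is an inference and was not tested.

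Genes were fitted on log2(FPKM + 0.1) in limma 3.58.1 (R 4.3.3), by lmFit and a trended eBayes, over the 6 libraries and the 17538 genes averaging at least 0.5 FPKM over the 12. Differences are on the log2(FPKM + 0.1) scale, which understates those of low genes. A gene was called at an adjusted p (Benjamini-Hochberg) under 0.05 and a log2 difference beyond 1 in either direction. The script was tested on simulated data. SRSF1 also had an exact two-sided permutation test. Floors cover counting error only. Columns of LINC01134 libraries entered only the filters and the fit over all 4 groups.

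The genes named were SRSF1, the SR factors and the 4 list members with the smallest p. Named too were called genes averaging at least 1 FPKM, with a known name and groups that did not overlap. Where fewer than 12 were called in a direction, such genes with the smallest p were added up to 12. Further list members (among them MDM2, CYP51A1, HMGCS1, ISG15, RPL17, RPL36A, MRPL19, COX7A1, NDUFA13 and NDUFS1) were added after their values were seen. The comparison and the gene lists were chosen with earlier results of these data known. The lists were matched by full name, or by 459 symbols looked up through full names, all of which matched. Alternatives covered the pseudocount, the filter, the scaling, the trend, library weights, a fit over all groups, a replicate block, voom on the recovered reads, gene length and the omission of each library. The shares of genes by blank level without single libraries, and the filter on the blank and LINC01134 libraries alone, were added after seeing the data. No result on splicing was drawn, because per-gene values hold no transcripts.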

Additional observations from a re-analysis of the deposited data

How the results depend on the processing

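The counts of called genes depended on the setting, and no called gene reversed its direction. With 6 genes higher and 9 lower at the reported setting, the counts were 33 and 51 with a pseudocount of 1, 1 and 0 with 0.01, 21 and 15 with a mean FPKM of at least 1, and 57 and 50 with voom on the recovered reads. They were 36 and 32 with the length trend removed, 1472 and 1259 in one fit over all 4 groups, 2397 and 2516 with array weights, and 1581 and 1302 without adjustment of p. Array weights put a weight of 158 on siSRSF1-3 replicate 2, so that fit rests on 1 library. With equal FPKM sums 1 gene was higher, against 393 at an unadjusted p. That setting kept 0 of the 6 genes called higher and 7 of the 9 called lower. Scaling by a library's own reads kept 1 of the 6 and 7 of the 9. Without the trend 15 were lower. With the siSRSF1-2 libraries averaged as 1, 0 were higher and 0 lower, with 206 and 154 at an unadjusted p. With the replicate block, 0 were higher and 0 lower in limma, with 1621 and 1416 at an unadjusted p. Deviations of same-numbered libraries correlated at 0.021, -0.0070 and 0.029, so no pairing by number was seen. The siSRSF1-2 libraries varied far less than the siSRSF1-3 libraries, so these correlations cannot show whether libraries were paired. When 1 library at a time was left out, from 0 to 2807 genes were higher and from 0 to 2551 lower, the highest counts without siSRSF1-3 replicate 3. The cause was not tested. SRSF1 stayed outside the threshold in all 22 alternatives, with adjusted p from 0.119 to 0.984.

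Among the protein-coding genes called, the call of ARL6IP1 was lost in 7 of the 22 alternatives and that of STT3A in 16. Values of single genes were counted once per named gene and alternative, so these are not counts of genes. Of them, 3553 kept their side of the threshold, 339 passed it newly and 147 no longer passed it. Of the list medians, counted once per list and alternative, 775 moved by less than the spread between siSRSF1-3 libraries and 105 by more. The medians of cytosolic and mitochondrial ribosomal proteins, the respiratory chain, U snRNP proteins, cholesterol synthesis and interferon-stimulated genes kept their sign in all 22.

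Depth allowed 0 reads to stand for up to 3, which limits the short RNA genes. The spread among 3 siSRSF1-3 libraries limits the rest.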
